A study of Mus musculus with 15 samples.

Results

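The genes described here are 3 receptors for fibroblast growth factors (Fgfr1, Fgfr2 and Fgfr3) and 7 genes switched on by the kinase ERK downstream of such receptors (Spry1, Spry2, Spry4, Dusp5, Dusp6, Etv4 and Etv5). They were chosen by symbol, and all 10 were found among the 45706 genes of every file. Polyadenylated RNA was measured by Smart-seq2 in 15 libraries of cultured oligodendrocyte-lineage cells from the brains of SRF-floxed/floxed mice, whose Srf gene can be cut out by the recombinase Cre. Precursor cells (OPCs) were isolated on antibody-coated dishes and kept dividing, or were moved to differentiation medium to become oligodendrocytes (OLs), the cells that make myelin. The cells of the 4 SRF-KO OL libraries received lentivirus-CRE-IRES-GFP on day 6, and those of the 4 control OL libraries a GFP lentivirus. Both were frozen on day 3 of differentiation. The cells of the 3 SRF-KO OPC libraries received an adeno-associated virus (AAV DJ) with eGFP-cre driven by CMV on day 3, and those of the 4 control OPC libraries the same virus with deleted cre. Both were frozen 48 hours after infection. All 15 libraries are labelled with the floxed alleles, so no group had Cre without them, and the viruses deliver Cre to any cell they infect. The design text of the series instead names mesenchymal stem cells and Olig2-Cre, and the groups here follow the labels of the samples, which name neither. The treatment tag of the SRF-KO OLs names the Cre virus but ends in "control", and the groups follow the titles. Nothing in the labels says that replicates came from separate animals or cultures, so p-values measure the spread between these libraries, which may be technical.

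Fibroblast growth factors bind receptor tyrosine kinases, which act through adaptors on RAS, RAF, MEK and ERK. Active ERK raises transcription of its own inhibitors, the Sprouty proteins and the dual-specificity phosphatases, and of the ETS factors Etv4 and Etv5, so that the RNA of these genes is widely used as a readout of ERK output. ERK also phosphorylates the ternary complex factors, ETS proteins that bind DNA together with SRF, so this signalling lies upstream of one class of SRF cofactors. In the oligodendrocyte lineage, fibroblast growth factor keeps precursors dividing, and ERK activity later promotes myelin growth.

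Total expected counts ran from 4303739 to 16026511 a library. Srf itself had 2 or 3 expected counts in each SRF-KO OPC library. Pooled over libraries, it reached 2.78% of the control OPC level, with an exact binomial 95% interval of 1.11 to 5.79% that covers counting error only. In OLs Srf had 3.33, 2.86, 2.37 and 4.54 CPM (counts scaled to a common library total) in the SRF-KO libraries, against 6.61, 7.74, 8.47 and 7.76 CPM in the controls. The log2 was -1.45 (edgeR adjusted p = 0.0225), a smaller listed reduction than in the OPCs. Virus, time and counting also differ between the stages, with Srf counted over 9324 bases in OLs and 4093 in OPCs. The call of Srf in OLs was lost, with an adjusted p up to 0.105, when any of SRF-KO replicates 1, 2 and 3 or control replicates 1, 2 and 3 was left out. On the first principal component, SRF-KO OPC replicate 2 (47.6, against -22.9 to 6.01 in the other OPC libraries) and SRF-KO OL replicate 4 (80.5, against -18.8 to 0.44 in the other OL libraries) stood apart. The OL label held for its markers, since 10 of 10 oligodendrocyte markers were higher in OLs than in OPCs in control and in SRF-KO cultures. The 8 OPC markers summed to 1513 to 1946 CPM in SRF-KO OLs, 1599 to 1950 CPM in control OLs, 2672 to 3243 CPM in SRF-KO OPCs and 3090 to 3422 CPM in control OPCs. In control and in SRF-KO cultures, 4 of these 8 were called higher in OLs and 4 lower. The OL cultures also held much RNA of astrocyte markers. These 8 genes, Gfap highest, summed to 9115 to 14944 CPM in SRF-KO OLs and 18568 to 28676 CPM in control OLs, and to 1411 to 1525 CPM in SRF-KO OPCs and 1106 to 1254 CPM in control OPCs. In whole cultures, fewer cells of a type and less RNA per cell cannot be told apart. Microglia markers summed to 9.16 to 16.9 CPM in OLs and 0 to 1.63 CPM in OPCs, and neuron markers to 120 to 190.4 CPM in OLs and 41.1 to 51.9 CPM in OPCs. Endothelial markers summed to 3.17 to 8.86 CPM in OLs and 0.508 to 1.68 CPM in OPCs, and fibroblast and mural markers to 1.47 to 3.51 CPM in OLs and 0.781 to 7.19 CPM in OPCs.

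The 2 stages were counted differently. For Dusp5 the OPC files list a length of 2473 bases, which is its spliced exons, and the OL files 13323 bases, which is the whole gene with its introns. The listed lengths of the 10 genes were 1.52 (Dusp6) to 237 (Fgfr2) times longer in the OL files. OL counts can therefore include intron reads and reads of genes nested in a gene body, and the library type does not mark strand. The virus, the day and the counting all change with the stage, so their parts in a difference between OLs and OPCs cannot be told apart. Mitochondrial genes took 9.08 to 14.2% of the counts in OLs and 4.65 to 5.73% in OPCs, and the part of this in the stage differences was not tested. Knockout comparisons lie within a stage and use 1 way of counting.

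Upstream sequence could be read for 7 of the 10 genes from RefSeq promoters on GRCm38.p6, 250 bases before to 50 after a start. Fgfr1, Spry4 and Etv4 were not included. The motif searched on both strands was the CArG box, the element SRF binds, a run of A and T bases between CC and GG. Dusp5, which encodes a nuclear phosphatase of ERK, was the only one of the 7 with a match, and it had 2 that adjoin, at -82 to -73 and -72 to -63 from the start. Of 32851 promoters in the table, 535 (1.63%) held at least 1 CArG box and 6 (0.0183%) at least 2. The letters CCGGAAG, an ETS motif, were found in no promoter of the 7 genes and in 8.86% of all promoters. Only this exact string was searched for ETS factors, so its absence does not show that these promoters lack ETS sites. Both phosphatase promoters are shown for comparison, with CArG boxes in capitals, on the plus strand at chr19:53528895-53529194 (Dusp5) and chr10:99262981-99263280 (Dusp6). A match describes these letters and is not evidence of binding.
Dusp5: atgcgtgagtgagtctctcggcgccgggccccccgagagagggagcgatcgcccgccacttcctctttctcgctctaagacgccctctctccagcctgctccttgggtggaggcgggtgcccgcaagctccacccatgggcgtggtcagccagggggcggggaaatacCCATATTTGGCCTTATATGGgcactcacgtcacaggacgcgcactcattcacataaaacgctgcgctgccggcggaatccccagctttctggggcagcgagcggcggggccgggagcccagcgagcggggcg
Dusp6: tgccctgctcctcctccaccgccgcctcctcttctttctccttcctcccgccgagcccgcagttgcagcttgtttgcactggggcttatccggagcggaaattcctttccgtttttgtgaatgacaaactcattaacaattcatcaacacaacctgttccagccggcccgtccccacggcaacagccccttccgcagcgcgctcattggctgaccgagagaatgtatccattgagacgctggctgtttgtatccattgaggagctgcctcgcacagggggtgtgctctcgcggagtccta

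Levels can be compared between genes only per length, and the deposited TPM, counts scaled by transcript length, does this in the OPC files for spliced RNA. In control OPCs the highest of the 10 were Etv5, a transcription factor of the PEA3 group, at 138 ± 13.2 TPM (mean ± SD, n = 4), and Dusp6, the cytoplasmic ERK phosphatase, at 123 ± 10.5 TPM, whose ranges overlap. Next came the Sprouty genes, inhibitors of RAS-ERK signalling, with Spry4 at 79.3 ± 7.18 TPM and Spry2 at 65.1 ± 5.79 TPM, ranges that do not overlap. Spry1 (50.9 ± 6.69 TPM) overlapped both Spry2 above it and Fgfr1 (48.7 ± 5.07 TPM) below it. Fgfr1 was thus the most abundant of the 3 receptors in OPCs. Etv4, the relative of Etv5, followed at 20 ± 2.68 TPM and overlapped Fgfr2 at 17.3 ± 3.52 TPM. Fgfr3 (6.08 ± 1.06 TPM) and Dusp5 (2.8 ± 0.813 TPM) were lowest, and neither overlapped its neighbour above. SRF-KO OPCs gave the same order except that Fgfr1 (46.8 ± 6.84 TPM, n = 3) stood just above Spry1 (44.9 ± 2.77 TPM), with overlapping ranges.

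**Figure D1:**
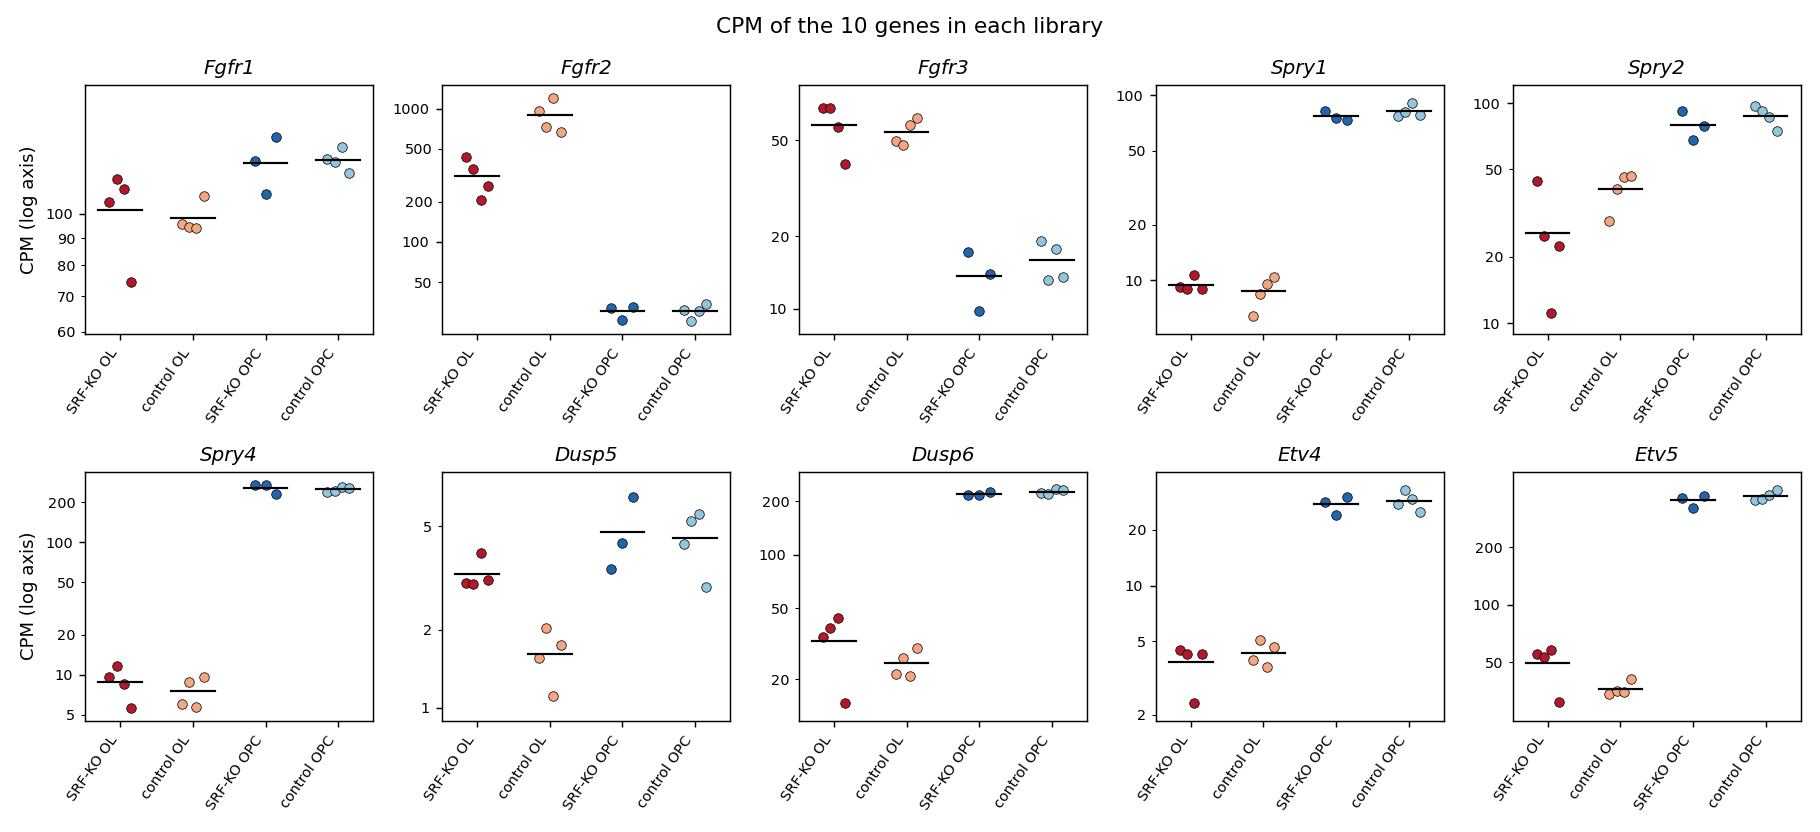
CPM of each of the 10 genes in each library (points, log axis that differs between genes) with the group mean (bar), for SRF-KO OL, control OL, SRF-KO OPC and control OPC. The knockout and control points of the OPCs overlap for all 10 genes, while the OL points of Spry1, Spry4, Dusp6, Etv4 and Etv5 lie far below the OPC points.

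The first question was whether loss of SRF changed this output in dividing OPCs. None of the 10 genes passed an adjusted p of 0.05 (edgeR quasi-likelihood test, Benjamini-Hochberg over all genes), where 0.0678% of the 13271 genes tested did. None passed an unadjusted p of 0.05 either, where 11.9% of all genes did, and DESeq2 likewise called 0. The intervals of the abundant genes were narrow. Etv5 had 362, 324 and 372 CPM in the SRF-KO OPCs, against 353, 357, 377 and 399.6 CPM in the control OPCs. The groups overlap, although SRF-KO replicate 2 lies below every control. The log2 fold change was -0.0920, with a 95% interval of -0.27 to 0.0821 (adjusted p = 0.675).

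Dusp6 had 218, 218 and 225 CPM in the SRF-KO OPCs, against 223, 221, 235 and 231 CPM in the control OPCs. The groups overlap by 1 library in CPM. After TMM scaling, which adjusts library totals for composition, all 3 SRF-KO values lay below all 4 controls, as in 6.25% of all genes, with a log2 of -0.0626 (interval -0.22 to 0.0920, adjusted p = 0.749). Spry4 had 268, 271 and 231 CPM in the SRF-KO OPCs, against 240.0, 242, 258 and 256 CPM in the control OPCs. SRF-KO replicates 1 and 2 lie above the control range and replicate 3 below it, and the log2 was 0.0281 (interval -0.15 to 0.21). For these 3 genes a change in either direction beyond a log2 of 0.27 lies outside the interval.

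The other 7 genes gave log2 values from -0.24 (Fgfr3) to 0.0513 (Dusp5), with adjusted p from 0.675 to 0.97. The interval of Spry1 was -0.31 to 0.0936 and that of Spry2 -0.43 to 0.13, while the sparse Dusp5 (31 to 84 counts a library) had the widest, -0.64 to 0.74. Estimates were below 0 for 8 of the 10 genes, with a median of -0.08, where the median of all genes was -0.0013. SRF-KO OPC replicate 2, the library that stood apart, was below the control range for 7 of the 10 genes in CPM, where 27.2% of all genes were. Replicates 1 and 3 were below it for 1 and 2 genes, where 19.3 and 19.4% of all genes were. Without replicate 2, Fgfr1, Fgfr2 and Spry4 changed sign, and still none of the 10 was called. Astrocyte markers summed to 1411 to 1525 CPM in SRF-KO OPCs, against 1106 to 1254 CPM in control OPCs. None of the 7 tested was called, 5 had an unadjusted p under 0.05, all higher, and Gjb6 was at 0. Oligodendrocyte markers summed to 481 to 521 CPM in SRF-KO OPCs, against 428 to 473 CPM in control OPCs. Of the 5 tested none was called, and 2 had an unadjusted p under 0.05, both higher. The part of either list in these values was not tested.

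**Figure D2:**
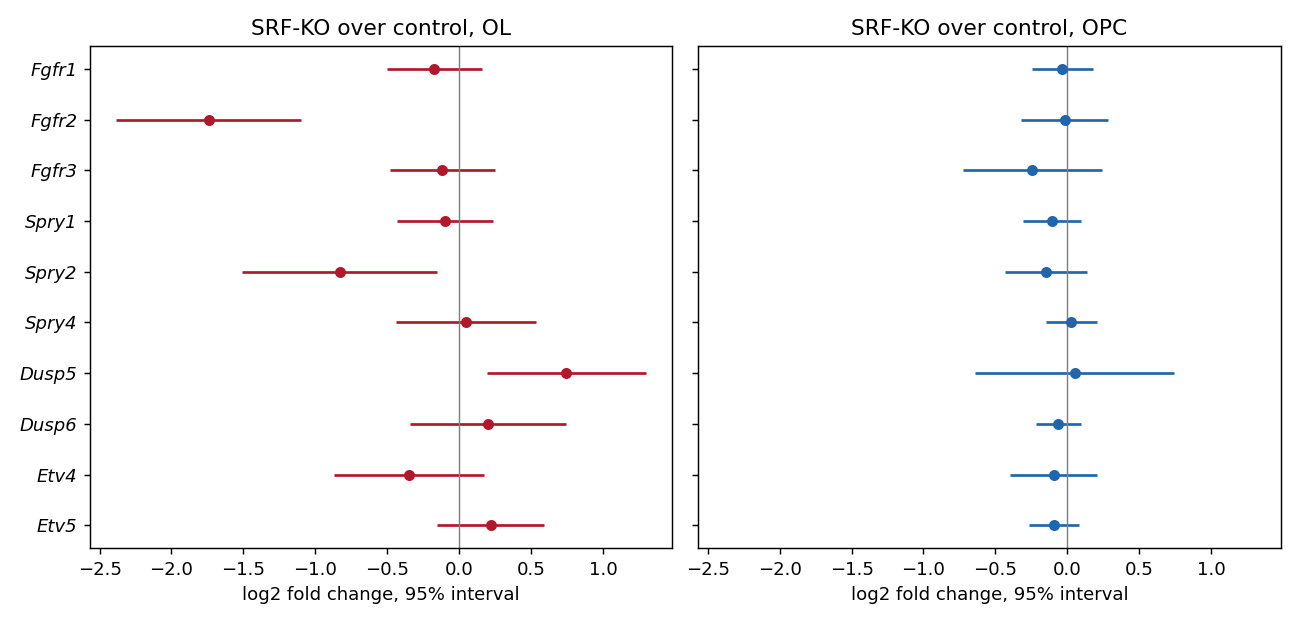
Log2 fold change of SRF-KO over control with its 95% interval for each of the 10 genes, in OLs (left) and in OPCs (right), on 1 scale. The OPC intervals of Dusp6, Spry4 and Etv5 all lie within 0.27 of 0, while the OL intervals are wider and those of Fgfr2, Spry2 and Dusp5 lie to one side of 0.

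In OLs 1 of the 10 genes, Fgfr2, passed the test between SRF-KO and control, and it was lower. Of 15193 genes tested, 0.296% passed, and 0.23% passed as lower. Fgfr2 had 436, 354, 206 and 262 CPM in the SRF-KO OLs, against 965, 723, 1205 and 671 CPM in the control OLs. Every SRF-KO library lies below every control, and the log2 fold change was -1.74 (SE 0.29, adjusted p = 0.0338). The call was lost, with adjusted p up to 0.15, when any of 5 libraries (SRF-KO replicates 2 and 3, control replicates 1, 2 and 3) was left out.

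What was counted as Fgfr2 in the OL files needs care. The GENCODE gene spans chr7:130162451-133123350 on GRCm38, 2960900 bases on the minus strand, because 1 transcript model reaches that far. The next longest model spans 103813 bases, and RefSeq gives the gene 104358 bases. The long span overlaps 69 other genes, 30 of them protein-coding, among them Ate1, Tacc2, Htra1, Plekha1, Bub3, Oat and Ctbp2. RSEM lists a gene's length as the mean of its models weighted by abundance, so the listed length bounds the share of the long model. At least 62.2, 49.6, 27.2 and 95.6% of the Fgfr2 counts fell to that model in SRF-KO OLs, and at least 91.5, 92.4, 95.6 and 78% in control OLs. What remains for the ordinary models is at most 165, 179, 150.3 and 11.6 CPM in SRF-KO OLs, against 82, 54.9, 52.7 and 148 CPM in control OLs. These upper limits overlap, and 3 of the 4 SRF-KO limits lie above all control limits. A limit is looser where the least share of the long model is smaller, so their order gives no direction of a difference. Deposited TPM of Fgfr2 was 4.31, 4.8, 3.9 and 0.39 in SRF-KO OLs, against 2.28, 1.56, 2.18 and 4.43 in control OLs. A limma fit of TPM gave Fgfr2 a log2 of 0.0134 (adjusted p = 0.994), where the median of all genes was 0.27. The whole Fgfr2 count of the SRF-KO OLs (206 to 436 CPM) is below the least that the long model took in control OLs (523 to 1152 CPM). How many of these reads came from Fgfr2 RNA was not tested. In OPC files, with listed lengths of 2430 to 2913 bases, Fgfr2 had 32, 26 and 32.8 CPM in the SRF-KO OPCs, against 31, 25.6, 30.2 and 34.1 CPM in the control OPCs, which overlap.

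**Figure D3:**
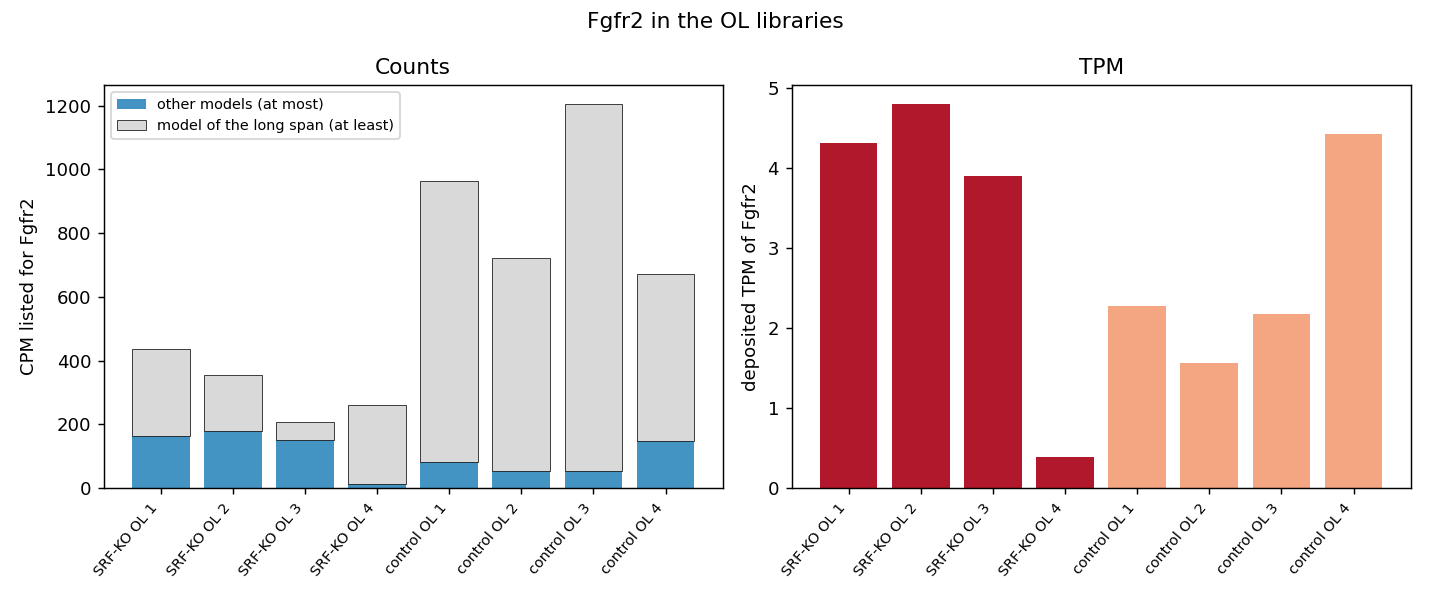
Left, CPM listed for Fgfr2 in each SRF-KO OL and control OL library, split into the least that falls to the model of the long span (grey) and the most that falls to all other models (blue). Right, deposited TPM of Fgfr2 in the same libraries. The grey part is larger in every control library (523 to 1152 CPM) than in any SRF-KO library (56.1 to 271 CPM), and TPM overlaps between the groups.

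The genes whose OL profile was most like that of Fgfr2, by root mean square difference of log2 CPM deviations over 8 libraries among 10498 genes, were Mphosph8 (0.11), Tmtc2 (0.11) and Peak1 (0.13). All 3 were called lower in SRF-KO OLs, with log2 of -1.67, -1.73 and -1.60. They were picked on these same 8 libraries, so values near that of Fgfr2 follow from the choice and are no separate result. In OPCs the gene of the 10 with the smallest p was Spry1, and Vapa, Farsb and Rmi1 were nearest to it over 7 libraries (0.03 to 0.04). None of them was called, which likewise follows from the choice.

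Summed cell-type markers also differed between the OL groups. The 10 oligodendrocyte markers summed to 14482 to 21433 CPM in SRF-KO OLs, against 22243 to 32316 CPM in control OLs. In the edgeR fits 1 of them was called lower and 7 had an unadjusted p under 0.05 as lower. Of all genes, 11.6% had such a p in either direction. Estimates were below 0 for 9 of 10, and the 1 above 0 also had an unadjusted p under 0.05. Mal was higher, with 51.5 to 85.3 CPM in SRF-KO OLs, against 24.1 to 46 CPM in control OLs. The 8 astrocyte markers also had sums that do not overlap in CPM, which rests on Gfap (4935 to 9598 CPM in SRF-KO OLs, against 13351 to 23469.9 CPM in control OLs). The other 7 summed to 4180.4 to 5346 CPM in SRF-KO OLs, against 4731 to 5216 CPM in control OLs, which overlap. In the edgeR fits, which use TMM scaling, 0 of the 8 were called and 7 estimates were below 0. Their part in the OL results was not tested.

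The other 2 receptors did not pass in OLs. Fgfr1 had 105, 116, 112 and 74.4 CPM in the SRF-KO OLs, against 95.7, 94.4, 94.1 and 108 CPM in the control OLs. SRF-KO replicate 4 lies below all controls, and replicates 2 and 3 above all of them. The log2 was -0.17 (interval -0.50 to 0.16, adjusted p = 0.727), and it was 0.0552 with library totals in place of TMM. Fgfr3 had 67.9, 67.9, 56.9 and 39.9 CPM in the SRF-KO OLs, against 49.9, 47.6, 58.1 and 61.9 CPM in the control OLs. The groups overlap on both sides, and the log2 was -0.12 (interval -0.48 to 0.25) or 0.10 with library totals. That scaling matters for all OL values below. TMM factors were 1.04 to 1.13 in SRF-KO OLs and 0.833 to 1.09 in control OLs, so that CPM of groups did not overlap in 12% of all genes with SRF-KO higher and in 1.19% with SRF-KO lower. After TMM scaling these shares were 4.13% and 3.89%.

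Among the Sprouty genes, Spry2 had 44.2, 24.9, 11.2 and 22.4 CPM in the SRF-KO OLs, against 29, 40.5, 46 and 46.5 CPM in the control OLs. Replicates 2, 3 and 4 of the SRF-KO OLs lie below every control, replicate 1 within the control range. The log2 was -0.83 (SE 0.31, interval -1.51 to -0.15), with an unadjusted edgeR p of 0.0204 and an adjusted p of 0.333, so it did not pass. Spry1 (log2 -0.10, interval -0.43 to 0.24) and Spry4 (0.0461, interval -0.44 to 0.53) overlapped between groups, at 8.96 to 10.7 CPM in SRF-KO OLs and 6.42 to 10.4 CPM in control OLs for Spry1. Spry2 was thus the one Sprouty gene of the 3 with an unadjusted p under 0.05.

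Dusp5, whose promoter is printed above, had 3.03, 2.99, 3.95 and 3.12 CPM in the SRF-KO OLs, against 1.55, 2.02, 1.11 and 1.75 CPM in the control OLs. All 4 SRF-KO libraries lie above all 4 controls, also after TMM scaling, on 16 to 35 counts a library in SRF-KO OLs and 8 to 26 in control OLs. The log2 was 0.75 (SE 0.25, interval 0.19 to 1.30), with an unadjusted edgeR p of 0.0126 and an adjusted p of 0.282, so it did not pass either. With Fgfr2 and Spry2 it made 3 of the 10 genes with an unadjusted p under 0.05, where 11.6% of all genes had one. Which genes these are depends on the scaling and the libraries. With library totals they were Fgfr2, Dusp5 and Etv5, without Spry2, where 19.7% of all genes had such a p. With TPM they were Dusp5 and Etv4, where 15.3% did. Without control OL replicate 3 they were Fgfr2 and Dusp5, where 7.95% did.

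Dusp6 had 34.7, 38.7, 43.9 and 14.6 CPM in the SRF-KO OLs, against 21.3, 26.4, 20.9 and 30 CPM in the control OLs. Etv5 had 55, 53.4, 57.9 and 30.8 CPM in the SRF-KO OLs, against 33.9, 35.3, 34.8 and 41 CPM in the control OLs. Both genes showed the same split, with SRF-KO replicates 1, 2 and 3 above every control and replicate 4 below every control, in CPM and after TMM scaling. Taken singly, these libraries often lay outside the control range, and the share of all genes with the whole split was not counted. Replicates 1, 2 and 3 each lay above every control in 42.7, 43 and 53.9% of all genes in CPM, and in 23.6, 28.2 and 31.9% after TMM scaling. Replicate 4 lay below every control in 27% of all genes in CPM. Over all 4 libraries the log2 was 0.20 for Dusp6 (interval -0.34 to 0.74) and 0.22 for Etv5 (interval -0.15 to 0.59), with adjusted p of 0.829 and 0.687. Without replicate 4, the library that stood apart, they were 0.39 (adjusted p = 0.0651) and 0.35 (adjusted p = 0.0505), so neither passed, although both had an unadjusted p under 0.05, which made 5 of the 10 genes. In that fit 641 genes of all were called, against 45 with replicate 4, and 21.9% of all genes had an unadjusted p under 0.05, against 11.6%. Fgfr2 was the one of the 10 called in both. Replicate 4 also had the highest share of mitochondrial counts, 14.2%, against 9.08 to 11.3% in the other SRF-KO OLs and 9.38 to 11.6% in control OLs, and its part in this split was not tested. Replicate 4 was below the control range for 7 of the 10 genes in TMM-scaled CPM, where 36.4% of all genes were, and above it for Dusp5. Etv4 had 4.49, 4.27, 2.32 and 4.29 CPM in the SRF-KO OLs, against 3.95, 5.06, 3.62 and 4.64 CPM in the control OLs, which overlap, with a log2 of -0.35 (interval -0.87 to 0.17, adjusted p = 0.632).

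**Figure D4:**
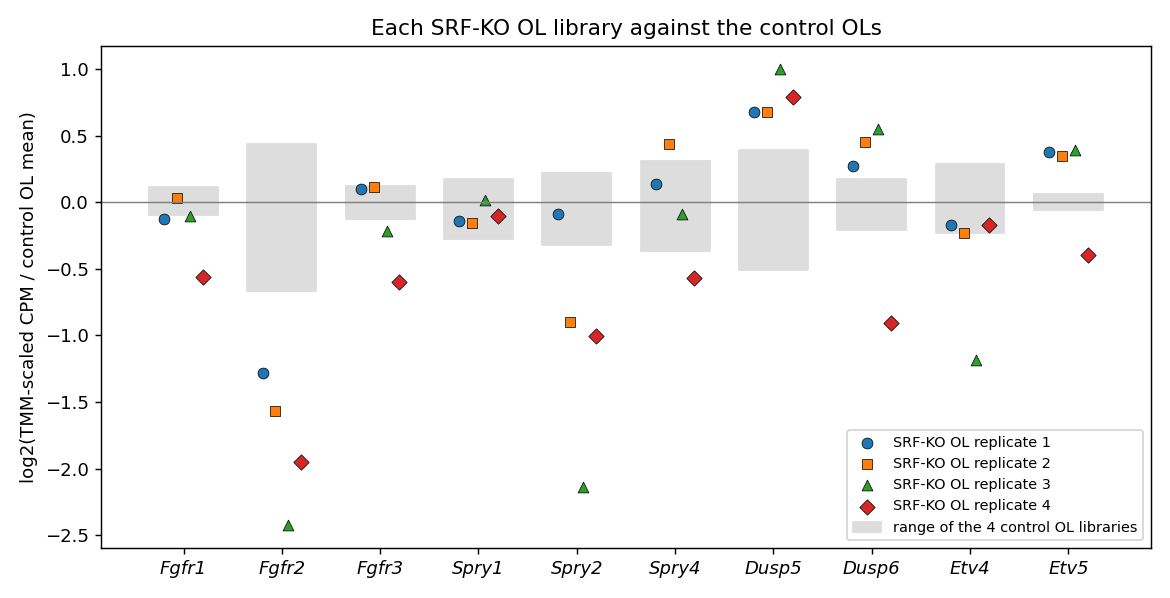
Log2 of the TMM-scaled CPM of each SRF-KO OL library over the mean of the 4 control OLs, for each of the 10 genes, with the range of the control libraries in grey. Replicates 1, 2 and 3 lie above the grey range for Dusp6 and Etv5 where replicate 4 (red diamond) lies below it, and all 4 lie above it for Dusp5 and below it for Fgfr2.

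Whether the knockout effect differed between OLs and OPCs was tested with all 15 libraries. None of the 10 genes passed, where 0.112% of 16135 genes did. At an unadjusted p under 0.05 there was 1 of the 10 (Fgfr2), where 9.27% of all genes passed, and DESeq2 called 1 (Fgfr2). Fgfr2 had a difference of -1.73 (SE 0.35, adjusted p = 0.0611), with the limit on its OL counts given above. Of the others, Dusp5 had 0.69 (interval -0.17 to 1.55), Spry2 -0.68 (-1.48 to 0.11) and Etv5 0.30 (-0.15 to 0.74). The intervals of these 3 include 0.

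The rest of the pathway was followed through 6 lists of 101 genes, of which 100 matched the files. Among 28 adaptors and members of the RAS to ERK cascade, all tested in both stages, none was called in either. Their smallest unadjusted p in OPCs belonged to Araf, a RAF kinase, with 109 to 128 CPM in SRF-KO OPCs, against 90.9 to 104 CPM in control OPCs (log2 0.26, adjusted p = 0.307). In OLs it belonged to Rps6ka3, an ERK-activated kinase, with 19.9 to 22.4 CPM in SRF-KO OLs, against 10.5 to 19.1 CPM in control OLs (log2 0.39, adjusted p = 0.323). Neither passed the test. The gene next to each by p, Hras in OPCs (log2 -0.38, adjusted p = 0.468) and Ptpn11 in OLs (log2 -0.36, adjusted p = 0.366), encodes a RAS protein and a phosphatase that relays receptor signals. The median log2 of this list was -0.11 in OPCs and -0.06 in OLs, beside -0.0013 and 0.02 for all genes.

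Of 19 FGF ligands and other receptors, 6 were tested in OPCs and 7 in OLs, and of 12 other receptor tyrosine kinases 10 and 12. None was called in either stage. Of the ligand and co-receptor list, Flrt1 (log2 0.55, adjusted p = 0.338) and Flrt2 (log2 -0.36, adjusted p = 0.466), membrane proteins that bind FGF receptors, had the smallest p in OPCs, and the ligand Fgf2 (log2 -0.67, adjusted p = 0.708) and Flrt1 (log2 -0.22, adjusted p = 0.711) in OLs. Of the other receptor kinases these were Erbb4 (log2 -0.47, adjusted p = 0.469) and Pdgfra (log2 -0.11, adjusted p = 0.571) in OPCs and, in OLs, Ntrk3 (log2 0.27, adjusted p = 0.6) and Pdgfra. Pdgfra, the receptor for the main OPC mitogen and a marker of precursors, had 56.3 to 80.5 CPM in SRF-KO OLs, against 42.1 to 58.2 CPM in control OLs (log2 0.39, adjusted p = 0.298). It was called higher without SRF-KO OL replicate 4 (adjusted p = 0.0232). The other OPC markers did not all follow Pdgfra. Of the 8, with Pdgfra, 3 had positive and 5 negative estimates in SRF-KO OLs against control OLs, with 1 called lower. An unadjusted edgeR p under 0.05 was found for 2 as higher and 3 as lower. Of the other feedback inhibitors and phosphatases, 15 were tested in OPCs and 13 in OLs, with none called. Dusp1, a nuclear phosphatase of several MAP kinases, had 46.1 to 64.1 CPM in SRF-KO OPCs, against 37 to 43.2 CPM in control OPCs (log2 0.40, adjusted p = 0.279). Next by p in OPCs was Pea15a (log2 0.19, adjusted p = 0.424), which binds ERK in the cytoplasm, and first in OLs were the phosphatase Dusp8 (log2 -0.50, adjusted p = 0.43) and Spred3 (log2 -0.70, adjusted p = 0.522), of a family of RAS inhibitors.

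Of 19 other ERK output genes, 17 were tested in OPCs and 1, Egr1, was called lower. Egr1 is an immediate-early gene with SRF sites in its promoter. It had 155 to 177 CPM in SRF-KO OPCs, against 259.5 to 275 CPM in control OPCs (log2 -0.69, adjusted p = 0.0152), and the groups do not overlap. The call was lost, with adjusted p of 0.052 to 0.0923, when any of SRF-KO replicates 1 and 3 or control replicates 1, 2 and 4 was left out, with all 15 libraries in 1 fit (0.0573) and with the replicate block (0.166). In OLs 16 were tested and none was called. Trib1 had 18.9 to 22.5 CPM in SRF-KO OLs, against 22 to 31.7 CPM in control OLs (log2 -0.57, adjusted p = 0.161) and Hbegf, which encodes a ligand of the EGF receptor, 59.8 to 90.6 CPM in SRF-KO OLs, against 36 to 44.6 CPM in control OLs (log2 0.63, adjusted p = 0.188). Both were called with DESeq2 (adjusted p = 0.0239 and 0.0368) and without SRF-KO OL replicate 4 (0.0349 and 0.0425). Among SRF and its cofactors, all 6 of them tested, Srf was the one called in each stage.

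The stage comparison asked whether output differed between OLs and OPCs. All 7 feedback genes were lower in control OLs than in control OPCs by the test, where 79.7% of 15028 genes passed, 37.1% lower and 42.5% higher. Spry4 had 6.03, 8.87, 5.7 and 9.59 CPM in control OLs, against 240.0, 242, 258 and 256 CPM in control OPCs. No value of one group comes near the other, and the log2 was -4.68 (interval -4.96 to -4.41, adjusted p = 5.84e-12). Of all genes tested, 0.725% had a value as low. Etv5 had 36.3 ± 3.2 CPM in control OLs and 372 ± 21.4 CPM in control OPCs (SD, n = 4 each; log2 -3.01). Spry1 had 8.71 ± 1.74 CPM in control OLs and 81.8 ± 6.23 CPM in control OPCs (log2 -2.90), and Dusp6 had 24.6 ± 4.37 CPM in control OLs and 227 ± 6.72 CPM in control OPCs (log2 -2.86). As low a value was found in 3.09%, 3.29% and 3.38% of the genes tested. Etv4 fell by 2.38 and Dusp5 by 1.11 on the log2 scale. Spry2 fell least, by 0.77, with 29, 40.5, 46 and 46.5 CPM in control OLs, against 96.7, 91.5, 86.2 and 74.3 CPM in control OPCs.

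The receptors did not follow the feedback genes. Counts of Fgfr3 were higher, with 49.9, 47.6, 58.1 and 61.9 CPM in control OLs, against 19.1, 13.2, 17.7 and 13.6 CPM in control OPCs (log2 2.12, interval 1.83 to 2.41, adjusted p = 7.25e-09). Its deposited TPM overlapped, at 6.67 to 14.7 in control OLs, against 4.89 to 7.07 in control OPCs. Fgfr3 is also expressed by astrocytes, and 7 of 8 astrocyte markers were likewise called higher in OLs and 1 lower, with the sums given above. Their part in this difference was not tested. Fgfr1 had a log2 of -0.0147 (interval -0.19 to 0.16, adjusted p = 0.872) and did not pass, but was -0.36 with library totals (adjusted p = 0.0031). Fgfr2 was listed 5.26 higher on the log2 scale, with at least 78 to 95.6% of its control OL counts on the long model. Its deposited TPM was instead lower, at 1.56 to 4.43 in control OLs, against 13.6 to 21.8 in control OPCs. TPM divides by length, and the listed lengths were 237 (Fgfr2) and 3.71 (Fgfr3) times longer in the OL files. TPM is therefore not the same measure in OLs and OPCs. The log2 of Fgfr2 from counts was 3.14 after the trend of the stage difference on the change in listed length was removed. Under that correction the feedback genes kept their direction and their call, from -4.58 for Spry4 to -0.77 for Spry2.

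**Figure D5:**
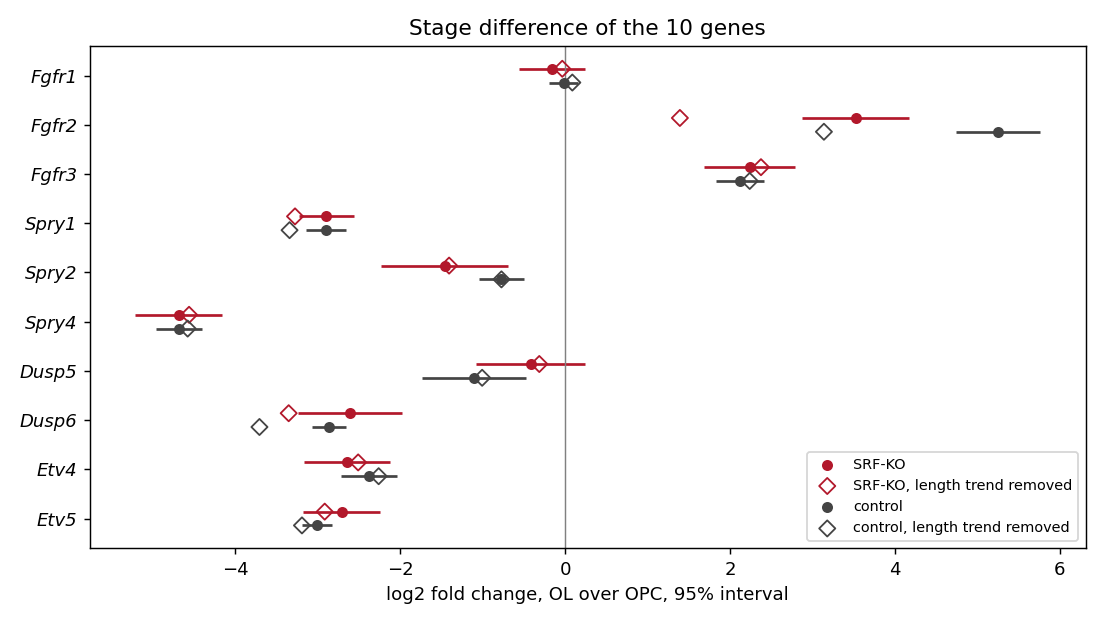
Log2 fold change of OL over OPC with its 95% interval for each of the 10 genes, in SRF-KO cultures (red) and in control cultures (grey), with open diamonds for the values after the length trend was removed. The 7 feedback genes lie left of 0 in both, Fgfr3 and Fgfr2 lie right of it, and the removal moves Fgfr2 most.

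SRF-KO cultures, which share no library with the controls, gave the stage comparison again. Here 6 of the 7 feedback genes were lower in OLs, where 66.6% of 15102 genes passed, 28.9% lower and 37.6% higher. Log2 values were -4.69 for Spry4, -2.90 for Spry1, -2.71 for Etv5, -2.64 for Etv4, -2.61 for Dusp6 and -1.46 for Spry2. Dusp5 did not pass (3.03, 2.99, 3.95 and 3.12 CPM in SRF-KO OLs, against 3.42, 4.3 and 6.5 CPM in SRF-KO OPCs, log2 -0.42, adjusted p = 0.239). Fgfr3 was again higher (2.24), Fgfr1 was not called (-0.16), and Fgfr2 was called higher (3.53, or 1.39 with the length trend removed), with the same limit on its OL counts. In deposited TPM, with the limit on its use across stages given above, Fgfr3 overlapped between SRF-KO OLs (5.37 to 12.4) and SRF-KO OPCs (3.33 to 6.52). Fgfr2 was lower in SRF-KO OLs (0.39 to 4.8 TPM) than in SRF-KO OPCs (14.4 to 16.6 TPM). The interaction test above is the test of whether these stage differences themselves differ between SRF-KO and control, and it called none of the 10.

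Of the pathway lists, the other feedback inhibitors had 8 of 15 tested genes lower and 3 higher in control OLs than in control OPCs, and the other ERK output genes 8 of 16 lower and 6 higher. Their median log2 values were -0.48 and -0.86, beside -2.86 for the 7 feedback genes and 0.10 for all genes. The cascade from adaptors to ERK had 10 of 28 lower and 11 higher, with a median of 0.09. In SRF-KO cultures the counts were 8 of 15 lower and 2 higher, 9 of 17 lower and 7 higher, and 7 of 28 lower and 8 higher.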

How the data were processed

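RNA was made into Smart-seq2 libraries and read as single reads, per the labels' protocols. bcl2fastq, STAR and RSEM are named without versions in the submitters' processing notes, as are the builds GRCm38 and Rnor_6.0 with no role for either. The gene IDs are mouse, and 45143 of 45706 matched a symbol. The deposited expected counts are the authors' RSEM estimates of reads per gene. The TPM values deposited by the authors divide these by effective length and scale them to a fixed total. Positions come from GENCODE M21.

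For the tests, run in R 4.3.3, expected counts were rounded to whole numbers and passed to edgeR 4.0.16 (filterByExpr, TMM, quasi-likelihood F-test, Benjamini-Hochberg adjustment over all genes, threshold 0.05). An SE is the absolute log2 fold change over the square root of F, and intervals are 95%. Knockout comparisons used the libraries of 1 stage, stage comparisons those of 1 genotype, and the interaction all 15. Alternatives were DESeq2 1.42.0, its size factors, library totals, no low-count filter, a replicate block, each replicate left out, all 15 libraries in 1 fit, removal of the length trend and, added after the data were seen, limma 3.58.1 on log2(TPM + 0.1). The tests were run first on simulated counts with the same spread for all genes and no outlying library. That run checks the code and not how the tests behave on these data. Genes named are all 10 members and Srf and, from each pathway list, those called in a knockout comparison or otherwise the 2 with the smallest p. The genes most like a member were sought for the member of smallest p in each stage. The members and lists were chosen with earlier results of these data known.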

Additional observations from a re-analysis of the deposited data

Results flagged for a closer look

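In 33 groups of 4 libraries (the 10 genes and Srf in 3 groups), a library was singled out when its gap to the nearest other took up more than 0.829 of the range of its group, and chance does this in about 1 of 20 groups. It did so 5 times. Fgfr1 in control OL replicate 4 was the highest of its group at 108 CPM. In SRF-KO OL replicate 3, Spry1 was the highest at 10.7 CPM, Dusp5 the highest at 3.95 CPM and Etv4 the lowest at 2.32 CPM, in the library with the fewest counts. Etv5 in SRF-KO OL replicate 4 was the lowest at 30.8 CPM. Srf itself differed between the stages in its knockout effect, by 3.68 on the log2 scale (SE 0.46, edgeR adjusted p = 0.00465), being less reduced in OLs than in OPCs, where virus, time and counting also differ.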

How the results depend on the processing

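Of 1112 alternative values of single genes, 1033 kept their direction and their side of the threshold, 46 changed sign, 22 lost a call and 11 gained one. The stage calls of the 7 feedback genes, Fgfr2 and Fgfr3 in controls all held under all 14 alternatives. None of these used TPM, which divides by listed lengths that differ between OLs and OPCs. In TPM Fgfr2 was lower in control OLs than in control OPCs and Fgfr3 overlapped. The count of the 10 genes called in OLs, 1 at first, was 0 with the replicate block and with TPM, and 0 to 1 with a replicate left out. For the interaction it was 0 at first, 1 without the low-count filter and with DESeq2, and 0 to 1 with a replicate left out. Over all genes, the 9 calls in OPCs became 101 without the filter, 139 with DESeq2, 2 with the block, 31 with all 15 libraries in 1 fit, 5 with TPM and 1 to 4 with a replicate left out. The 45 calls in OLs became 73 with library totals, 133 without the filter, 299 with DESeq2, 5 with the block, 96 with all libraries, 5 with TPM and 7 (without SRF-KO replicate 2) to 641 (without SRF-KO replicate 4) otherwise. The 18 interaction calls became 91 without the filter, 169 with DESeq2, 0 with the block (1078 genes at an unadjusted p under 0.05) and 4 to 134 with a replicate left out.

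The labels do not say whether libraries with the same replicate number belong together. Deviations of same-numbered libraries correlated at -0.0155 to 0.0491 in OPCs and -0.281 to 0.0264 in OLs. For other pairs the values were -0.0506 to 0.0508 in OPCs and -0.227 to 0.284 in OLs. With so few libraries in a group this cannot exclude pairing. With the block, Fgfr2 in OLs had -1.73 (adjusted p = 0.176) and Srf in OLs -1.45 (0.193), and the Srf interaction had an adjusted p of 0.0866. Signs changed with the block for Fgfr2 (0.0396) and Dusp5 (-0.15) in OPCs and for the interactions of Spry1 (0.0387) and Spry4 (-0.0250). With TPM they changed for Spry4 (-0.0501) and Dusp5 (-0.0246) in OPCs and for Fgfr1 (0.21), Fgfr2 (0.0134), Spry1 (0.21) and Flrt1 (0.12) in OLs. The median log2 of all genes with TPM was -0.0674 in OPCs and 0.27 in OLs. With library totals signs changed for Fgfr1 (0.0552), Fgfr3 (0.10) and Spry1 (0.11) in OLs. They also changed for the interactions of Fgfr1 (0.0728) and Spry1 (0.20) and for the stage difference of Srf in controls (-0.0264). Medians of all genes with library totals were 0.24 in OLs, 0.22 in the interaction and -0.235 between the stages in controls. The stage difference of Fgfr1 in controls was 0.0517 with DESeq2 size factors, 0.0518 with DESeq2 and 0.0887 without the length trend. The interaction of Spry4 was -0.0139 without the filter. With a replicate left out, log2 values ran over 0 in OPCs (Fgfr1 -0.12 to 0.0569, Fgfr2 -0.0894 to 0.0856, Spry4 -0.0101 to 0.10, Dusp5 -0.23 to 0.23), for Spry4 -0.13 to 0.16 in OLs, for Fgfr1 -0.0654 to 0.0228 between the stages in controls and in the interaction (Fgfr3 -0.0631 to 0.31, Spry1 -0.0901 to 0.0515, Spry4 -0.17 to 0.15). None of these passed the threshold. The cause was not tested. Dusp5 had 8 to 35 counts and Etv4 10 to 65 counts in OL libraries, which limits the precision of both.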
